A study of Rattus norvegicus with 6 samples.

Results

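B cells and the plasma cells they become make antibody, and their genes were followed here in rat liver through 7 listed genes: Bank1, Blnk, Cd79a, Cd79b, Jchain, Ms4a1 and Mzb1. A gene was taken as measured where a probe set of the array carried its symbol and no other. That gave 7 probe sets of 31042, for 6 of the 7 genes. Cd79a had no such probe set and is not analysed further, and Jchain had 2. The measurements came from 6 arrays of liver RNA, 2 in each of 3 groups of BBDR congenic rats. The BBDR.lyp/lyp post-hyperglycemia rats were homozygous for the lyp mutation, were 55 days old within 5 days, and had just become hyperglycemic. The BBDR.lyp/lyp pre-hyperglycemia rats had the same genotype at 50 days within 5 days, before hyperglycemia. The BBDR.+/+ rats carried no lyp mutation, were 55 days old within 5 days and stayed free of diabetes unless induced. The lyp mutation disables Gimap5, a survival factor of T cells, so the lyp/lyp groups are a model with few circulating T cells, and genotype and hyperglycemia both separate post-hyperglycemia from BBDR.+/+. Age and hyperglycemia both separate it from pre-hyperglycemia. Genotype and age both separate pre-hyperglycemia from BBDR.+/+. Gimap5 had log2 signals of 5.71 and 5.91 in the post-hyperglycemia arrays, 5.52 and 5.85 in the pre-hyperglycemia arrays and 6.43 and 6.45 in the BBDR.+/+ arrays, so both lyp/lyp groups lay below BBDR.+/+. The labels number the replicates and do not say whether each is a separate animal, so the p-values measure the spread between these samples.

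A B cell senses antigen through a membrane antibody whose signal is carried inward by the Cd79a and Cd79b chains. Kinases such as Lyn and Syk then act on adaptors, among them Blnk, which links Syk to Btk and phospholipase C, and Bank1, a scaffold that binds Lyn. Ms4a1 encodes CD20, a membrane protein of mature B cells that plasma cells lose. Plasma cells secrete antibody. Mzb1 is a chaperone cofactor of antibody assembly in the endoplasmic reticulum, and Jchain joins IgM and IgA into polymers. In the rat, hepatocytes carry polymeric IgA from blood into bile by the receptor Pigr. Liver is mostly hepatocytes, so the RNA of B lineage cells is a small part of the whole, and more such cells and more RNA per cell cannot be told apart on these arrays.

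Promoter sequence, the 250 bases before the start site that the promoter table gives for each gene, was matched by symbol for 4 of the 7 genes (RefSeq, build GRCr8). For Bank1 that start, and the bases shown, lie inside the outermost bounds of the annotated gene, downstream of its first annotated base. The promoters of Bank1 and Jchain are shown because those genes held the probe sets that passed the test in liver, and that of Blnk because it alone held one of the motifs searched. They lie at chr2:227473716-227473965 on the minus strand (Bank1), chr14:19822726-19822975 on the plus strand (Jchain) and chr1:249770534-249770783 on the minus strand (Blnk). Capitals mark the octamer, the site of the Oct factors that B cell genes are known for.
Bank1: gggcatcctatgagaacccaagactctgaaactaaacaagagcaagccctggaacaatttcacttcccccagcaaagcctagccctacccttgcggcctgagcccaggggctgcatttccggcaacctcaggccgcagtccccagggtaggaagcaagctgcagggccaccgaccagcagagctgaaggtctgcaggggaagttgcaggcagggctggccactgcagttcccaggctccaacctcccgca
Jchain: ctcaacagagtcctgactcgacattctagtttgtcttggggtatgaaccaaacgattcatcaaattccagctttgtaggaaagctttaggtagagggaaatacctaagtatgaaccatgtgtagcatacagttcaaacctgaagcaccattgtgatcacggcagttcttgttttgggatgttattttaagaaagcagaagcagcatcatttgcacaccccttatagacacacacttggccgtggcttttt
Blnk: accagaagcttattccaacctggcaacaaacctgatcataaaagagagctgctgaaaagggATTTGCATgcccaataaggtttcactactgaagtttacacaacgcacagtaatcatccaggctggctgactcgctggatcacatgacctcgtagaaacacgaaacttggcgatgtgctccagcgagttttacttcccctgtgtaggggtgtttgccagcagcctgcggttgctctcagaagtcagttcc
Both strands were searched for the octamer ATGCAAAT and for core motifs of EBF, a B cell factor, and of the interferon response. The 1 match, on the reverse strand in Blnk, lay 182 to 189 bases before its start. Of 33469 rat promoters of this length, 1.56% held the octamer, 0.738% the EBF core and 3.41% the interferon response core. A match describes these letters and is no evidence of a bound site.

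Bank1 and Jchain were the genes with a probe set that was higher in BBDR.lyp/lyp post-hyperglycemia than in BBDR.+/+ by the test across all probe sets. Values are log2 signals, on which a difference of 1 is a doubling, and a probe set was called where its adjusted p from limma, a linear model with variances shared across probe sets, was under 0.05. Bank1 rose by 0.58, and the dimmer probe set of Jchain rose by 0.53. Mzb1, Blnk, Ms4a1 and Cd79b did not pass the test. By mean signal over all arrays, these 4 genes and the dimmer probe set of Jchain lay at percentiles 37.2 to 45.6 of all probe sets. Bank1 lay at 50.8 and the brighter probe set of Jchain at 67.4. Whether each signal was above background was not tested, so a difference that did not pass does not show unchanged RNA. With each gene read on its brightest probe set, 1 of 6 genes was called, where 325 of 14217 genes were called higher and 176 lower. Over all member probe sets 2 of 7 were called, both higher, where 5.15% of all probe sets were called and 1.89% were called higher.

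Bank1 (1385019_at) had signals of 6.13 and 6.43 in the post-hyperglycemia arrays, 5.95 and 5.91 in the pre-hyperglycemia arrays and 5.82 and 5.58 in the BBDR.+/+ arrays. The groups did not overlap in any of the 3 comparisons, with post-hyperglycemia the highest and BBDR.+/+ the lowest. The difference between post-hyperglycemia and BBDR.+/+ was 0.58 (SE 0.13, 95% interval 0.29 to 0.87, limma adjusted p = 0.0288). Against pre-hyperglycemia it was 0.35 (interval 0.06 to 0.63, limma adjusted p = 0.230), and between pre-hyperglycemia and BBDR.+/+ it was 0.24 (limma adjusted p = 0.543), so neither step passed on its own.

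The brighter probe set of Jchain (1383163_at) had signals of 7.38 and 7.42 in the post-hyperglycemia arrays, 7.24 and 6.65 in the pre-hyperglycemia arrays and 6.92 and 6.78 in the BBDR.+/+ arrays. The 2 post-hyperglycemia arrays lay close together and above all others, while the 2 pre-hyperglycemia arrays lay on either side of both BBDR.+/+ arrays. The difference from BBDR.+/+ was 0.55 (SE 0.16, 95% interval 0.19 to 0.91, limma adjusted p = 0.0851) and missed the threshold. The dimmer probe set (1384208_at) had signals of 5.87 and 5.87 in the post-hyperglycemia arrays, 5.52 and 5.38 in the pre-hyperglycemia arrays and 5.36 and 5.33 in the BBDR.+/+ arrays. Its post-hyperglycemia arrays were again the highest of the 6, and its difference from BBDR.+/+ passed (0.53, SE 0.10, interval 0.30 to 0.75, limma adjusted p = 0.0157). Both probe sets of Jchain gave differences of like size, with a larger error for the brighter one. Their mean gave 0.54 and passed (limma adjusted p = 0.0296).

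**Figure D1:**
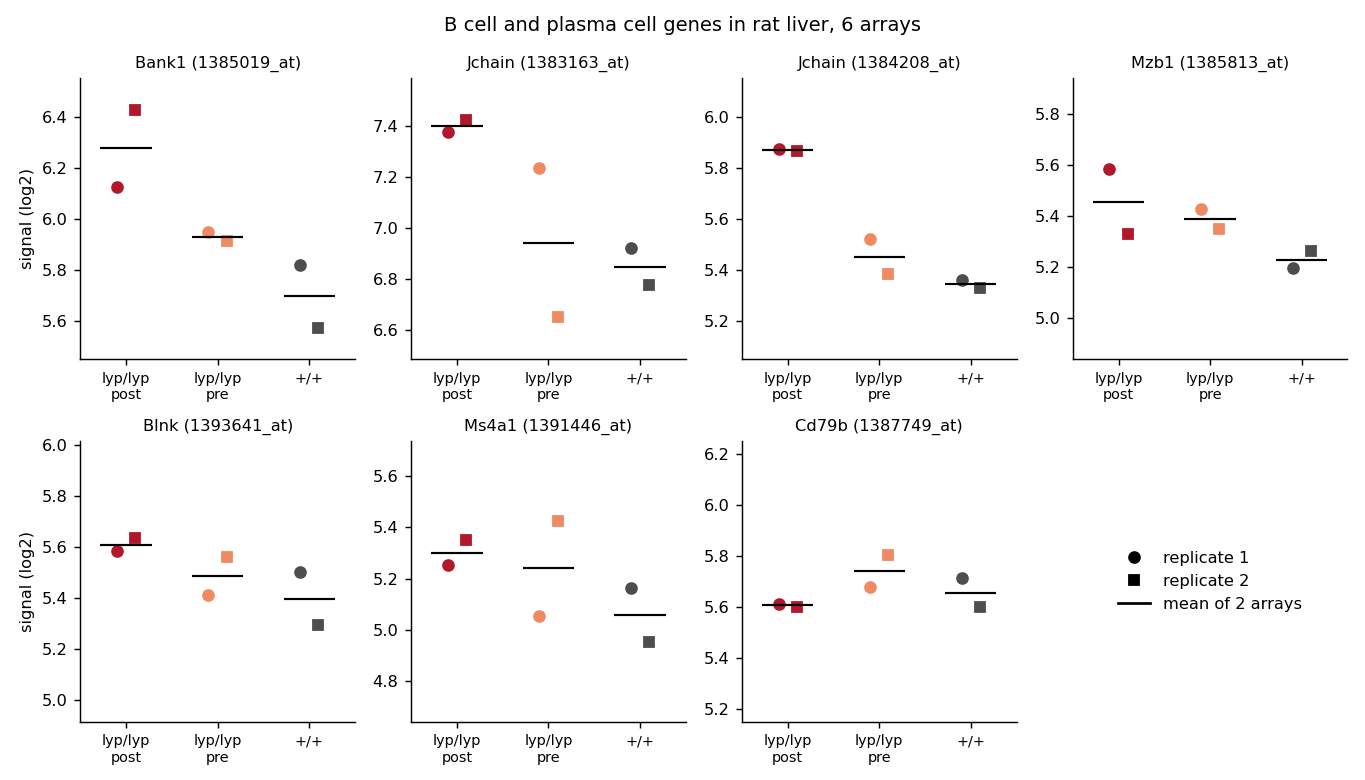
Log2 signal of the 7 probe sets of the B cell and plasma cell genes in BBDR.lyp/lyp post-hyperglycemia, BBDR.lyp/lyp pre-hyperglycemia and BBDR.+/+ livers, with 1 point for each array and a bar at the mean of 2; every panel spans the same log2 range. Both post-hyperglycemia points lie above both BBDR.+/+ points in 6 of the 7 panels, Cd79b being the exception, and the pre-hyperglycemia points of Jchain 1383163_at and of Ms4a1 lie far apart.

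Mzb1, which works in the same secretory cells as Jchain, had signals of 5.58 and 5.33 in the post-hyperglycemia arrays, 5.43 and 5.35 in the pre-hyperglycemia arrays and 5.20 and 5.26 in the BBDR.+/+ arrays. Both lyp/lyp groups lay above BBDR.+/+ without overlap and overlapped each other. The difference of 0.23 between post-hyperglycemia and BBDR.+/+ did not pass (limma adjusted p = 0.314).

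Among the genes of receptor signalling, the adaptor Blnk had signals of 5.58 and 5.64 in the post-hyperglycemia arrays, 5.41 and 5.56 in the pre-hyperglycemia arrays and 5.50 and 5.29 in the BBDR.+/+ arrays. The post-hyperglycemia arrays were the highest of the 6, by a margin smaller than the gap between the 2 arrays of either other group, and the difference of 0.21 from BBDR.+/+ did not pass (limma adjusted p = 0.341). Cd79b, the receptor chain, had signals of 5.61 and 5.60 in the post-hyperglycemia arrays, 5.68 and 5.80 in the pre-hyperglycemia arrays and 5.71 and 5.60 in the BBDR.+/+ arrays. It was the member whose post-hyperglycemia mean was the lowest of the 3 groups, at a difference of -0.05 from BBDR.+/+ (interval -0.28 to 0.18, limma adjusted p = 0.851) and -0.13 from pre-hyperglycemia (limma adjusted p = 0.621).

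Ms4a1, the marker of mature B cells, had signals of 5.25 and 5.35 in the post-hyperglycemia arrays, 5.05 and 5.43 in the pre-hyperglycemia arrays and 5.16 and 4.95 in the BBDR.+/+ arrays. Its 2 pre-hyperglycemia arrays enclosed both post-hyperglycemia arrays. The difference from BBDR.+/+ was 0.24 (limma adjusted p = 0.367) and that from pre-hyperglycemia 0.06 (limma adjusted p = 0.895). In the pre-hyperglycemia group replicate 1 was the higher of the 2 for Jchain 1383163_at and replicate 2 the higher for Ms4a1, whereas in each of the other groups the same replicate was the higher for both.

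Both post-hyperglycemia arrays lay above both BBDR.+/+ arrays at 6 of the 7 probe sets, against 26.7% of all probe sets. They lay below at 0 of the 7, against 22.1% of all. Counted by gene, they lay above for 5 of the 6, against 32.4% of all genes. They lay below for 0 of the 6, against 2598 of 14217 genes. The 7 probe sets were read on the same arrays and are not independent of each other. Members were chosen with earlier results of these data known, so the values in this paragraph do not test the set. The median difference over the 6 genes was 0.24, against 0.04 over all genes. The mean signal of the 6 genes was 5.92 to 5.96 in the post-hyperglycemia arrays, 5.78 to 5.79 in the pre-hyperglycemia arrays and 5.58 to 5.72 in the BBDR.+/+ arrays.

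Between post-hyperglycemia and pre-hyperglycemia, which share the genotype, 0 of the 7 probe sets passed, where 2.18% of all probe sets did. With limma, 3 of the 7 had an unadjusted p under 0.05, where 14.9% of all did. By the methods' t-test 1 of the 7 did, and 2790 of all 31042. The largest differences were those of Jchain, at 0.46 for the brighter probe set (95% interval 0.10 to 0.82, limma adjusted p = 0.206) and 0.42 for the dimmer (limma adjusted p = 0.0677). The dimmer one passed when the test was limited to the top 60% of probe sets by mean signal (limma adjusted p = 0.0379). Post-hyperglycemia lay above pre-hyperglycemia without overlap at Bank1, both probe sets of Jchain and Blnk, 4 of 7 probe sets against 23.6% of all. It lay below at Cd79b, where 20.9% of all did so. Counted by gene, it lay above for 3 of the 6, against 25.6% of all genes. It lay below for 1 of the 6, against 2908 of 14217 genes. The median over the genes was 0.10, against 0.01 over all genes.

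Pre-hyperglycemia and BBDR.+/+ differ in both genotype and age, with neither group hyperglycemic. Between them 0 of the 7 passed, where 0.718% of all probe sets did. By limma 0 had an unadjusted p under 0.05, where 11.4% of all did. By the methods' t-test 0 did, where 2784 of all did. All 6 genes had a mean above that of BBDR.+/+, by 0.09 to 0.24, as did 56.3% of all genes. Both pre-hyperglycemia arrays lay above both BBDR.+/+ arrays at 3 of the 7 probe sets (Bank1, the dimmer of Jchain and Mzb1), against 21.6% of all. They lay below at 0 of the 7, against 21% of all. Counted by gene, they lay above for 2 of the 6 (33.3%), against 28.3% of all genes, a share not far from that background. They lay below for 0 of the 6, against 2523 of 14217 genes. The median was 0.13, against 0.02 over all genes. The 3 comparisons share arrays, so their values are not separate evidence.

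**Figure D2:**
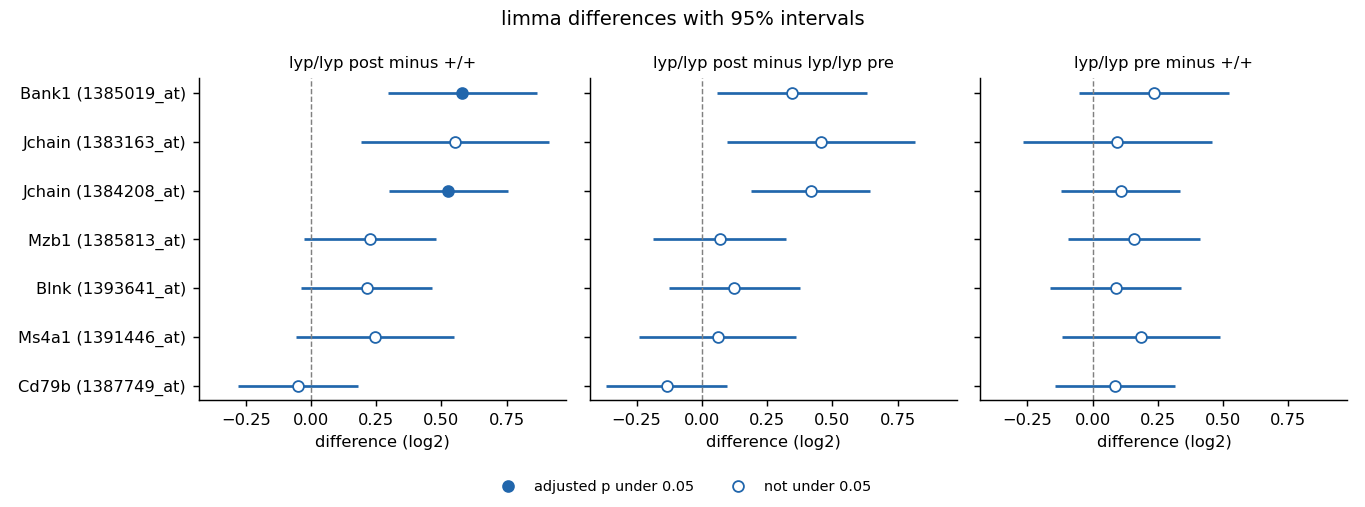
Difference in log2 signal for each probe set with its 95% interval from limma, for post-hyperglycemia minus BBDR.+/+, post-hyperglycemia minus pre-hyperglycemia and pre-hyperglycemia minus BBDR.+/+; filled points had an adjusted p under 0.05. The filled points are Bank1 and Jchain 1384208_at against BBDR.+/+, and every interval of pre-hyperglycemia minus BBDR.+/+ crosses 0.

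With 2 arrays a group, these calls often ended when 1 array was left out. Such a fit has fewer residual degrees of freedom, and a group that lost an array has a single one left. A lost call is therefore not by itself a mark of the array left out. The call of Bank1 ended without BBDR.+/+ replicate 1 (0.70), without BBDR.+/+ replicate 2 (0.46) or without post-hyperglycemia replicate 2 (0.43), though the difference stayed above 0. That of Jchain 1384208_at ended without any 1 of the 4 arrays compared, at differences of 0.51 to 0.54. Jchain 1383163_at passed when either pre-hyperglycemia array was left out (0.55, limma adjusted p = 0.017), and without pre-hyperglycemia replicate 1 it also passed against pre-hyperglycemia (0.75, limma adjusted p = 0.0237).

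**Figure D3:**
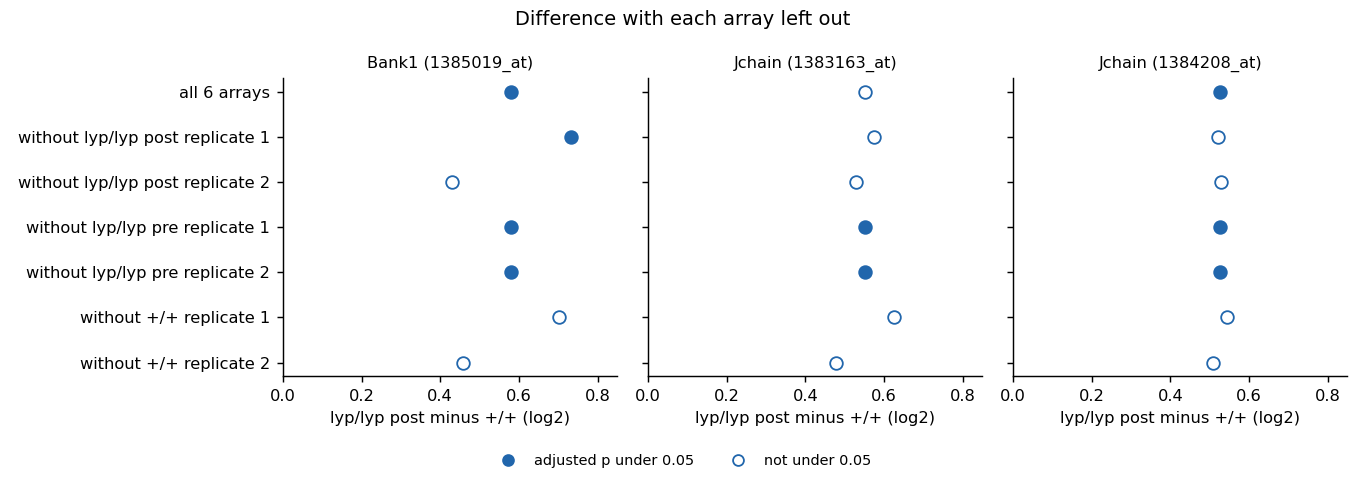
Difference in log2 signal between post-hyperglycemia and BBDR.+/+ with all 6 arrays and with each array left out, for Bank1 and both probe sets of Jchain; filled points had an adjusted p under 0.05. The difference stayed between 0.43 and 0.73 for Bank1 and between 0.51 and 0.54 for Jchain 1384208_at, and filled points are lost when arrays of the comparison are left out.

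A measure of RNA or labelling quality moved with the same group. The gap between the 3′ and 5′ control probe sets of actin and GAPDH (mean of both, log2), which widens when transcripts are cut short, was 1.74 and 1.68 in the post-hyperglycemia arrays, 1.09 and 0.93 in the pre-hyperglycemia arrays and 1.04 and 0.78 in the BBDR.+/+ arrays. With that gap as a covariate the difference of Bank1 was 0.14 and that of Jchain 1384208_at was 0.26, while Jchain 1383163_at turned to -0.51. With the covariate 0 of all 31042 probe sets passed in this comparison, so the loss of the calls is not particular to the members. Since the gap does not overlap between post-hyperglycemia and the other groups, it and the condition cannot be told apart.

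Most other genes of the B cell program did not pass the test, and neither did 13716 of all 14217 genes. Among all genes, 325 were called higher and 176 lower against BBDR.+/+. Of 30 other listed genes of the B cell receptor and B cell identity, 19 were measured, 0 rose and 2 fell against BBDR.+/+, with a median of 0.03. The kinases Btk (0.32, limma adjusted p = 0.164) and Syk (0.22, limma adjusted p = 0.284) and phospholipase Plcg2 (0.29, limma adjusted p = 0.210) act next to Blnk and did not pass. The 2 brightest of the 19, Pik3ap1 (-0.10, limma adjusted p = 0.670) and Cxcr5 (-0.09, limma adjusted p = 0.678), did not pass either. In this list 13 genes had a difference above 0 and 6 below. The 2 genes called lower were Fcrla and Lyn.

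Fcrla, an Fc receptor-like protein of B cells, had signals of 6.93 and 6.88 in the post-hyperglycemia arrays, 7.05 and 7.04 in the pre-hyperglycemia arrays and 7.47 and 7.71 in the BBDR.+/+ arrays. Both lyp/lyp groups lay below BBDR.+/+, and the post-hyperglycemia difference fell by 0.68 (limma adjusted p = 0.00652), a call that ended without BBDR.+/+ replicate 2 (-0.56). Its dimmer probe set gave -0.17 (limma adjusted p = 0.543). Lyn, the kinase that Bank1 binds and that myeloid cells also use, fell by 1.02 against BBDR.+/+ (limma adjusted p = 0.00741) and by 0.88 against pre-hyperglycemia (limma adjusted p = 0.0285) on its brighter probe set. That probe set read 5.87 and 6.46 in the post-hyperglycemia arrays, 6.99 and 7.10 in the pre-hyperglycemia arrays and 7.05 and 7.32 in the BBDR.+/+ arrays. Its other probe set gave 0.12 and 0.28 (limma adjusted p = 0.596 and 0.229), so the probe sets of Lyn disagreed. The first Lyn call ended without BBDR.+/+ replicate 2 (-0.89), and the second ended in every case but without post-hyperglycemia replicate 2 (-0.94 to -0.59).

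Antibody genes were sparsely covered. Of a list of 14 genes, made up of immunoglobulin genes and the IgA transporter Pigr, 2 were measured. They were the light chain constant gene Iglc1 (0.00092, limma adjusted p = 0.998) and Pigr (0.03, limma adjusted p = 0.917), and neither passed in any comparison. Iglc1 was thus the only antibody gene measured. Of 16 genes of plasma cells and of the secretory machinery that plasma cells share with hepatocytes, 12 were measured. Against BBDR.+/+, 325 of all 14217 genes were called higher and 176 lower. Of the 12, 0 rose and 1 fell, with a median of -0.01. The gene that fell was Herpud1, which takes part in endoplasmic reticulum protein degradation, by 0.53 (limma adjusted p = 0.0231), and by 0.55 against pre-hyperglycemia (limma adjusted p = 0.0334). Its first call ended without either BBDR.+/+ array or post-hyperglycemia replicate 1 (-0.57 to -0.42), its second in every case but without post-hyperglycemia replicate 2 (-0.61 to -0.44). The plasma cell surface marker Sdc1 (-0.05, limma adjusted p = 0.835) and the regulator Xbp1 (-0.10, limma adjusted p = 0.651), both also made by hepatocytes, did not pass. Tnfrsf17 did not pass either (-0.30, limma adjusted p = 0.126). Its post-hyperglycemia arrays (4.71 and 4.69) lay below its BBDR.+/+ arrays (5.02 and 4.98), the direction opposite to Jchain and Mzb1. Differences from BBDR.+/+ were above 0 for 6 of the 12 genes and below 0 for 6. Edem1, of the same list, had 3 probe sets that disagreed. The brightest gave 0.08 (limma adjusted p = 0.744) and the next 0.22 (limma adjusted p = 0.271), while the dimmest fell by 0.58 (limma adjusted p = 0.0337).

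**Figure D4:**
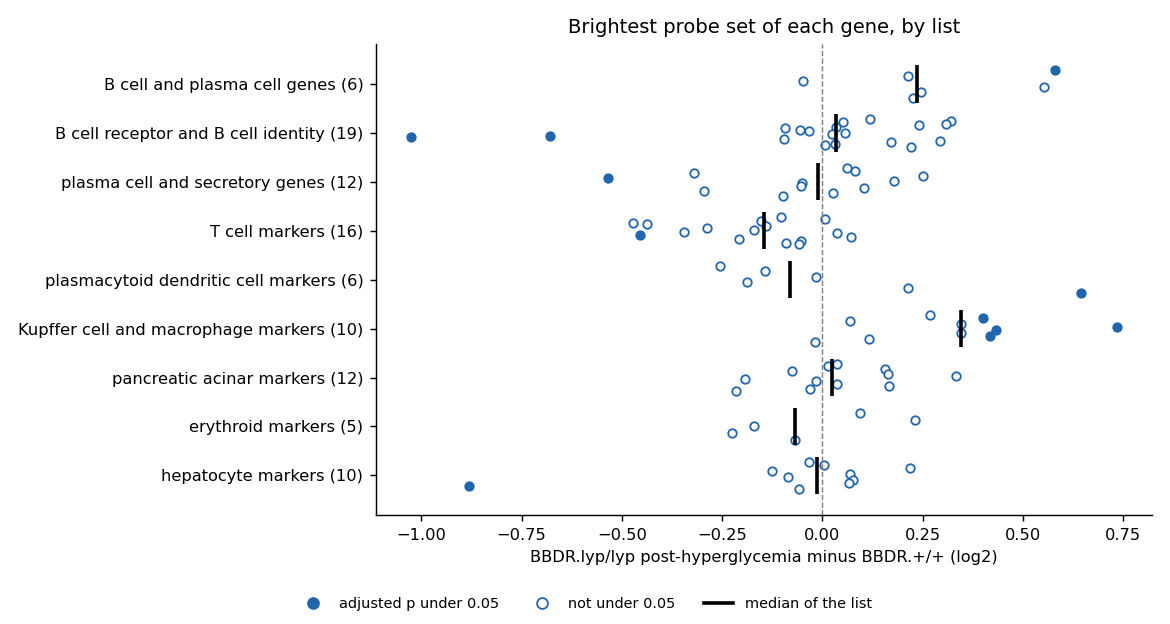
Difference in log2 signal between post-hyperglycemia and BBDR.+/+ for the brightest probe set of each gene in 9 lists, with the number of genes measured in brackets; filled points had an adjusted p under 0.05 and the bar is the median of the list. The bars of the B cell and plasma cell genes (0.24) and of the Kupffer cell and macrophage markers (0.35) lie to the right of 0 and that of the T cell markers (-0.15) to the left.

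Some markers of other cell types moved as well. Among all 14217 genes, 325 were called higher and 176 lower in post-hyperglycemia against BBDR.+/+. Of 16 measured T cell markers, read on their brightest probe sets, 0 rose and 1 fell against BBDR.+/+. It was Cd8b, by 0.45 (limma adjusted p = 0.0353), lost without any 1 of the 4 arrays compared (-0.52 to -0.39). Of the 3 probe sets of Cd8a, the brightest gave 0.04 and the dimmest 0.21, neither called, and the other fell by 0.43 (limma adjusted p = 0.0497). Without overlap, 9 of the 16 markers lay below BBDR.+/+, as did 2598 of 14217 genes on their brightest probe set. The mean signal of the 16 was 5.19 to 5.25 in the post-hyperglycemia arrays, 5.24 to 5.29 in the pre-hyperglycemia arrays and 5.39 to 5.40 in the BBDR.+/+ arrays. Of 10 measured markers of Kupffer cells, the liver macrophages, 4 rose and 0 fell (Cd163, Clec4f, Cd5l and C1qa, by 0.40 to 0.73), with mean signals of 10.02 to 10.04 in the post-hyperglycemia arrays, 9.97 to 9.98 in the pre-hyperglycemia arrays and 9.70 to 9.73 in the BBDR.+/+ arrays. The calls of Clec4f, Cd5l and C1qa ended without any 1 of the 6 arrays, and that of Cd163 without BBDR.+/+ replicate 2 (0.61). The dimmer probe set of Cd5l gave 0.07 (limma adjusted p = 0.920), with post-hyperglycemia arrays at 5.41 and 6.34, so the rise of Cd5l rests on its brighter probe set. Hepatocyte markers averaged 13.50 to 13.53 in the post-hyperglycemia arrays, 13.56 to 13.57 in the pre-hyperglycemia arrays and 13.57 to 13.60 in the BBDR.+/+ arrays. Of the 10 hepatocyte genes 1 was called against BBDR.+/+, Tat, an enzyme of tyrosine breakdown, which fell by 0.88 (limma adjusted p = 0.0115). The Tat call ended without BBDR.+/+ replicate 2 (-0.75) or post-hyperglycemia replicate 1 (-0.67), and the median of the list was -0.01, with 5 genes above 0 and 5 below. The mean of the pancreatic acinar markers, of which 0 of 12 were called, lay between 4.69 and 4.78 in all arrays. The part of these shifts in the B cell and plasma cell genes was not tested.

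The genes whose pattern over the 6 arrays was most like that of Bank1, by the root mean square difference of centred log2 signals among 14216 other genes, were Rbm45 (0.037), Snrpd1 (0.043) and the interferon-induced Ifi44 (0.054). Ifi44 had signals of 7.01 and 7.25 in the post-hyperglycemia arrays, 6.83 and 6.66 in the pre-hyperglycemia arrays and 6.62 and 6.47 in the BBDR.+/+ arrays, the same order of groups as Bank1. Rbm45 and Snrpd1, which lay nearer to Bank1 than Ifi44 did, had that order of groups too. This likeness describes 6 arrays in 3 groups and carries no test.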

How the data were processed

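Liver RNA samples were read on 6 Affymetrix rat genome arrays. The authors used Expression Console for quantification and Partek Genomic Suite for normalization, and deposited log2 values, 1 per probe set and array. For both programs the version, and for the normalization the algorithm, was not given in the sources used here. Of 31099 probe sets, 57 controls were left out. Gene names came from the platform annotation, in which 20826 probe sets had 1 symbol, 436 several and 9780 none.

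limma (version 3.58.1, R 4.3.3) was fitted with 1 mean per group over 6 arrays (3 residual and 7.70 prior degrees of freedom), and p-values were adjusted by Benjamini-Hochberg over 31042 probe sets. No filter on signal was applied. The fit was tested on simulated data. Where a gene had several probe sets, the brightest by mean stood for it in counts of genes. Named genes were every member, the called and brightest genes of each list, and the 3 profiles nearest to a called member on its brightest probe set. Some further genes of the lists, and Gimap5, were named as well. Members and lists were chosen with earlier results of these data known. Some genes that the rule covers are not named. The number of arrays limits the precision. Alternatives covered normalization, filters, model, threshold, probe set choice, a 3′ to 5′ covariate, a replicate block and leaving out each array. Tables and figures were made with Python 3.11.15 (numpy 2.4.6, pandas 2.3.3, matplotlib 3.10.9).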

Additional observations from a re-analysis of the deposited data

How the results depend on the processing

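The count of member genes called higher in post-hyperglycemia than in BBDR.+/+ was 1. In each of the other comparisons the count was 0. Over the 3 comparisons 44 of 60 recomputed counts stayed within 1.5 times of their value, with a 0 that stayed 0 counted among them. The pooled share therefore does not measure how stable the count of 1 was. For post-hyperglycemia against BBDR.+/+ the count was 0 with the rank product at 0.20, which called 748 of all probe sets, and at an adjusted p under 0.01, which called 556. It was also 0 with the methods' t-test after adjustment and with the 3′ to 5′ covariate, which called 0 of all probe sets, and among the top 30% of probe sets by mean, which held no member, so these 3 counts of 0 say nothing about the members. It was 2 with the arrays of the comparison alone, with an intensity trend, with the replicate block, at an adjusted p under 0.10 and with all probe sets of a gene averaged. Leaving out 1 array gave 0 to 2 against BBDR.+/+ and 0 to 1 against pre-hyperglycemia. The labels do not say that the replicate numbers pair the samples, and the arrays do not settle it: same-numbered arrays deviated together at correlations of 0.142, 0.110 and 0.261, from 2 pairs each. With the replicate block 2273, 1191 and 408 of all probe sets were called, against 1599, 677 and 223 without it, and among the members it gained Jchain 1383163_at against BBDR.+/+ (adjusted p = 0.0444 from limma) and Jchain 1384208_at against pre-hyperglycemia (adjusted p = 0.0472 from limma).

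Of 393 recomputed differences of single probe sets, 355 kept direction and side of the threshold, 15 lost and 11 gained a call, and 12 changed direction. With the covariate, post-hyperglycemia minus BBDR.+/+ was -0.51 for Jchain 1383163_at and -0.012 for Blnk. Post-hyperglycemia minus pre-hyperglycemia was then -0.47 for Jchain 1383163_at, -0.071 for Blnk and -0.041 for Bank1, and pre-hyperglycemia minus BBDR.+/+ was -0.035 for Jchain 1383163_at. Leaving out 1 array at a time gave, for post-hyperglycemia minus BBDR.+/+, -0.11 to 0.0075 for Cd79b. For post-hyperglycemia minus pre-hyperglycemia it gave -0.13 to 0.25 for Ms4a1 and -0.059 to 0.20 for Mzb1. For pre-hyperglycemia minus BBDR.+/+ it gave -0.20 to 0.39 for Jchain 1383163_at, -0.0015 to 0.37 for Ms4a1 and -0.015 to 0.19 for Blnk. The causes were not tested. Over all probe sets the calls ranged from 0 to 2710, 0 to 1289 and 1 to 496 under the alternatives that keep every array.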

Other observations

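Of 6 measured markers of plasmacytoid dendritic cells, which share several genes with B cells, 1 was called against BBDR.+/+ and it was higher. It was Tlr7, a sensor of single-stranded RNA that B cells also carry, at 4.51 and 4.74 in the post-hyperglycemia arrays, 4.21 and 4.24 in the pre-hyperglycemia arrays and 4.03 and 3.94 in the BBDR.+/+ arrays (difference 0.64, limma adjusted p = 0.00839), with no overlap between any of the groups. The call ended without BBDR.+/+ replicate 2 (0.60) or post-hyperglycemia replicate 2 (0.53). The mean signal of Tlr7, 4.28, was below that of the dimmest member, Ms4a1 at 5.20, and whether it was above background was not tested. The list's median was -0.08.

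Of 5 measured erythroid markers, 1 was called in pre-hyperglycemia against BBDR.+/+. It was Alas2, the heme synthesis enzyme of red cell precursors, at 8.41 and 8.46 in the pre-hyperglycemia arrays and 7.88 and 7.88 in the BBDR.+/+ arrays (difference 0.56, limma adjusted p = 0.0352), a call that ended without any 1 of these 4 arrays (0.54 to 0.58). The mean of the list was 7.48 to 7.58 in the post-hyperglycemia arrays, 7.80 to 7.98 in the pre-hyperglycemia arrays and 7.55 to 7.57 in the BBDR.+/+ arrays.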
